A study of Mus musculus with 7 samples.

Results

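The 10 genes described here are Atf4, which encodes the transcription factor at the centre of the integrated stress response, and 9 genes known as its targets: Chac1, Trib3, Asns, Ddit3, Ddit4, Sesn2, Atf3, Psat1 and Phgdh. They were taken by symbol from the deposited count table, which holds 55371 symbols under 55487 gene identifiers. The 10 symbols stand on 11 identifiers, because Ddit3 has a second, overlapping one on chromosome 10 that had 0 counts in every library and was not used. The libraries are islets of Langerhans isolated from 4 control mice and from 3 mice labelled Traf6 KO, in which the series text places the loss of Traf6 in beta cells. The Traf6 product is a ubiquitin ligase of innate immune signalling. All 7 mice had eaten a 60% high-fat diet for 15 weeks, so diet was not compared, and all islets were cultured for 24 hours after isolation. The labels give neither the promoter that drives the deletion nor age, sex or genetic background. Whole islets were sequenced, so beta cells, in which the gene was targeted, were measured together with other islet cells and with exocrine tissue carried along.

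The integrated stress response starts when stress-sensing kinases phosphorylate the translation initiation factor eIF2alpha. General protein synthesis then falls, while the Atf4 message is translated more, so that ATF4 protein can rise with little change of its mRNA. ATF4 switches on genes of amino acid synthesis and transport, redox balance and, when stress persists, the pro-apoptotic factor CHOP, the product of Ddit3. Beta cells, which make large amounts of insulin in the endoplasmic reticulum, are known for their dependence on the kinase PERK in this pathway. mRNA counts do not measure eIF2alpha phosphorylation or ATF4 protein.

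Several libraries stood apart. Totals ran from 22104256 to 29917292 counts. A list of 29 genes of pancreatic acinar cells, all of them detected, took 19.8% of counts in control 1, 55.3% in Traf6 KO 1 and 42.3% in Traf6 KO 2, against 0.451% to 3.19% in the other 4 libraries. These 3 are called acinar-rich below, and the genotypes are unevenly spread over them. Xist stood at 420 CPM in Traf6 KO 3 and at 0.388 CPM or less in the other 6 libraries, and this RNA is made in female cells. Genes of beta cells summed to 156318 to 190548 CPM in control and 89969 to 116514 CPM in Traf6 KO, and genes of alpha cells to 17315 to 31915 and 18797 to 28882 CPM. Ductal genes (14 of 14 detected) summed to 951 to 1255 CPM in control and 1354 to 2321 CPM in Traf6 KO. Endothelial genes (10 of 10 detected) summed to 453 to 554 and 393 to 452 CPM. The beta-cell, ductal and endothelial lists each separated the genotypes, the endothelial list narrowly (452.8 against 451.5 CPM), and the alpha-cell list did not. Stellate and fibroblast genes (181 to 279 and 194 to 419 CPM) and macrophage and myeloid genes (180 to 529 and 150 to 266 CPM) overlapped. CPM are counts per 1000000, here with each total scaled by its TMM factor (0.5 to 1.35). On plain totals, without that factor, the ductal and endothelial lists overlapped and the beta-cell list did not. Traf6 itself was at 12.6 to 25.5 CPM in control and 14.5 to 15.4 CPM in Traf6 KO (log2 fold change -0.40 ± 0.22 SE, adjusted p by edgeR = 0.416). With these factors the library labelled control 4 had the lowest value of all 7, which goes against its label. On plain totals it lay above Traf6 KO 1 and 2, whose TMM factors are 0.5 and 0.74 against 1.279. The groups overlapped, however, so Traf6 counts of whole islets cannot settle the genotype of a library. Sample names carry tags, S for the library labelled control 4 and for Traf6 KO 3 and Q or R for the other 5.

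ATF4 binds, with a C/EBP partner, a composite element whose core was searched as TGATGNAA on both strands. The window ran from 250 bases before to 50 bases after each start site in RefSeq promoters on GRCm38.p6. All 10 genes had a window there, and 4 of them held the core: Atf3, Chac1, Trib3 and Asns. It was found in 1304 of 32851 promoter windows (3.97%). The full ATF/CRE octamer TGACGTCA (1.79% of windows) and the ER stress element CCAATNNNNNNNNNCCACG (0.119%) were found in none of the 10. The sites are shown because these 4 genes fall into different expression patterns below. They are written 5′ to 3′ on the strand of the gene, with the core, read on this strand or its opposite, in capitals.

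Chac1, chr2:119351019-119351086, plus strand, core from base -193: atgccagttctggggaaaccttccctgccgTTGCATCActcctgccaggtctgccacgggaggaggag
Atf3, chr1:191183406-191183473, minus strand, core from base -110: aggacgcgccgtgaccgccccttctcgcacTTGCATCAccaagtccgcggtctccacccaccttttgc
Asns, chr6:7693210-7693262, minus strand, core from base -23: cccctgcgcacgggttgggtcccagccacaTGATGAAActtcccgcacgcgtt
Trib3, chr2:152344031-152344054, minus strand, core from base 15 after the RefSeq start: gctcaggtTTACATCAgccgggcg

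The core letters in Chac1 and Atf3 are the same, TTGCATCA on the strand shown, whereas Asns and Trib3 differ from them at the free position. The Trib3 core lies after the RefSeq start but before the start of the GENCODE gene model, and Trib3 is the gene whose window end was not found in a GENCODE transcript. The Asns and Atf3 cores lie before the RefSeq start used but inside the GENCODE gene models, which start at bases 7693254 and 191218039. A match of letters is a description of these windows and not a measured binding site.

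Levels per length were compared between genes in CPM per kilobase of annotated exon. Atf4 was highest in control islets, at 95.3 ± 13.6 CPM per kb (SD, n = 4), above every other member in each control library. Next came Ddit4, an inhibitor of mTORC1, at 41.3 ± 18.6, and the asparagine synthetase gene Asns at 32.2 ± 9.32 CPM per kb, whose control values overlapped. Ddit3 (14.9 ± 4.82), the stress-inducible sestrin gene Sesn2 (13.4 ± 1.11) and Phgdh (10.2 ± 6.95), the first enzyme of serine synthesis, overlapped as well. Atf3, a stress-induced repressor of the ATF/CREB family, averaged 6.62 ± 6.83 CPM per kb with the widest relative spread. Chac1, which encodes a glutathione-degrading enzyme, stood at 5.54 ± 0.804, above Psat1 (1.73 ± 0.533), an aminotransferase of serine synthesis, and the pseudokinase gene Trib3 (1.59 ± 0.290), which overlapped each other.

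Between the genotypes no member passed the test across all genes. edgeR tested 16203 genes and called 0.0% at an adjusted p under 0.05, and the smallest adjusted p was 0.176. At an unadjusted p under 0.05 stood 2589 genes, among them 5 members: Chac1, Psat1, Trib3, Phgdh and Asns. The log2 fold change was above 0 in 9 of the 10 members, with a median of 1.01, against 8209 of 16203 genes and a median of 0.01 over all genes tested. In 2 members, Chac1 and Trib3, the lowest Traf6 KO library exceeded the highest control, an order seen in 5.58% of all genes tested. The opposite order was seen in 0 members and in 8.68% of all genes tested. On plain library totals 2 members, Chac1 and Psat1, lay above in every Traf6 KO library, against 0.759% of all genes. With 4 and 3 libraries an exact two-sided permutation test cannot go below p = 0.0571. In bulk islets a difference in the number of cells of a type and one in RNA per cell cannot be told apart.

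**Figure D1:**
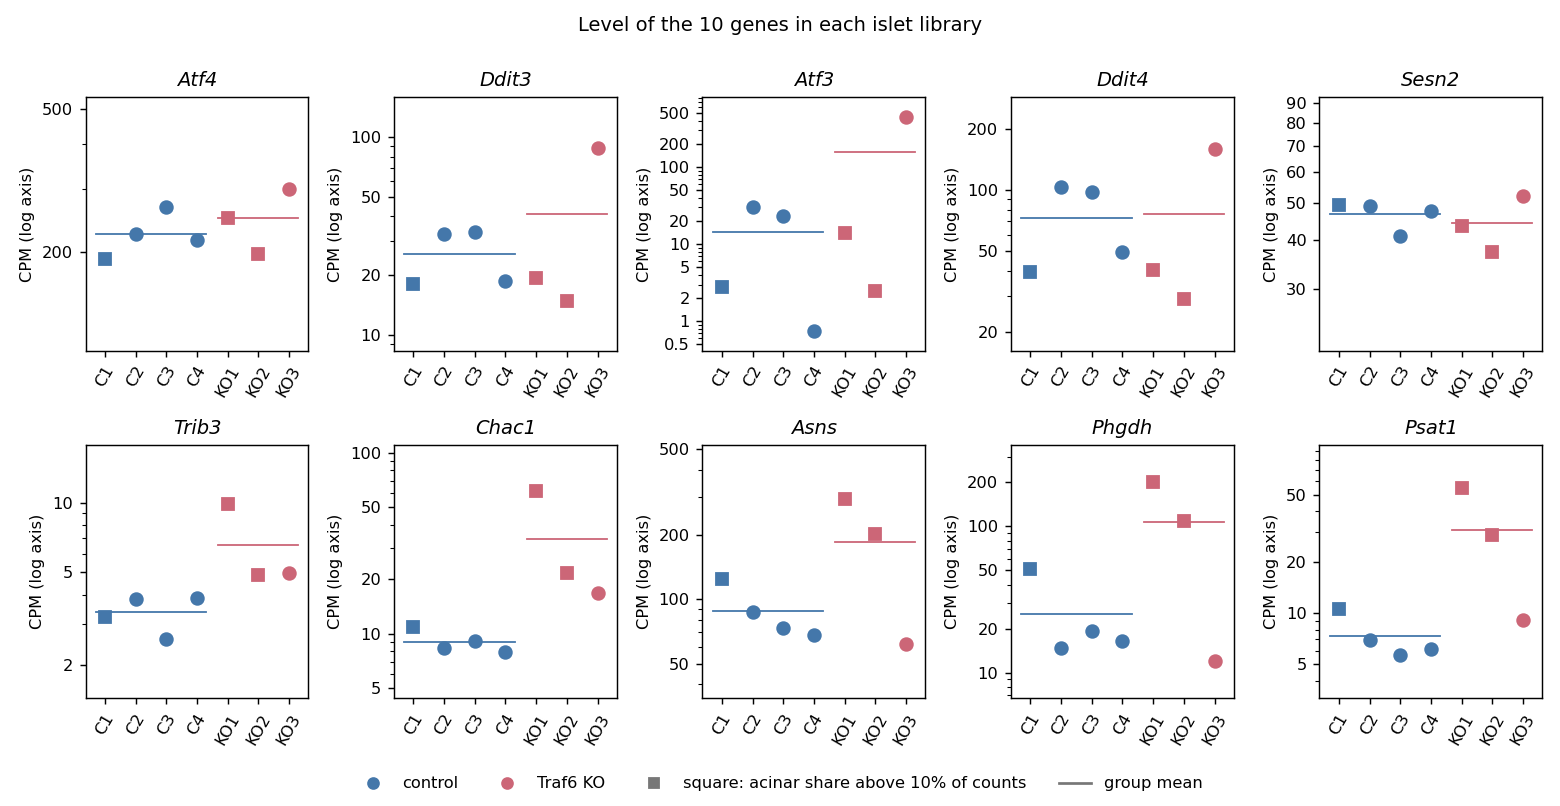
Level of each of the 10 genes in CPM (log axis) in the 4 control (C1 to C4, blue) and 3 Traf6 KO (KO1 to KO3, red) libraries, with group means as lines and the 3 acinar-rich libraries as squares. Chac1 and Trib3 are higher in each Traf6 KO library than in each control, Phgdh and Asns are high in the squares, and Atf3, Ddit3 and Ddit4 are highest in KO3, followed by C2 and C3.

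Atf4 (ENSMUSG00000042406, chromosome 15, 80255184 to 80257541 on GRCm38, protein-coding) was among the steadiest members. Its level was 191, 224, 268 and 216 CPM across the 4 libraries labelled control and 248, 197 and 301 CPM in Traf6 KO 1 to 3. The groups overlapped, with the highest value in Traf6 KO 3 and the lowest in control 1. The log2 fold change was 0.15 ± 0.18 (SE, adjusted p by edgeR = 0.720; exact two-sided permutation p = 0.5143). It was -0.02 without Traf6 KO 3. On plain library totals it was -0.27, where the median of all genes moved to -0.46. Sesn2, which restrains mTORC1 when leucine is short, varied still less: 49.2, 49.1, 41.1 and 47.5 CPM in control and 43.6, 37.4 and 51.9 CPM in Traf6 KO. Its groups overlapped too (log2 fold change -0.08 ± 0.13 SE, adjusted p by edgeR = 0.811). Of the 7 libraries, Traf6 KO 3 was highest and Traf6 KO 2 lowest for Sesn2.

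Chac1 (chromosome 2, 119351229 to 119354381) had the smallest p of the 10. It stood at 10.9, 8.36, 9.10 and 7.90 CPM across the 4 libraries labelled control and at 61.7, 21.7 and 16.8 CPM in Traf6 KO 1 to 3. Controls lay close together, and each Traf6 KO library exceeded the highest of them. Control averaged 9.07 ± 1.32 CPM (SD, n = 4), and Traf6 KO averaged 33.4 ± 24.7 CPM (SD, n = 3). The log2 fold change was 1.87 ± 0.42 (SE, adjusted p by edgeR = 0.183), and the exact two-sided permutation p was 0.0571, the smallest possible. Ordered by rising acinar share, the 3 acinar-rich libraries are control 1 (19.8%), Traf6 KO 2 (42.3%) and Traf6 KO 1 (55.3%). Chac1 rose in the same order, at 10.9, 21.7 and 61.7 CPM. These 3 libraries are not matched in acinar share, and its part in the Chac1 difference among them was not tested. Of the other 4 libraries, the controls lay at 7.90 to 9.10 CPM, and the only Traf6 KO library, Traf6 KO 3, had 16.8 CPM. Within the Q and R tags the controls had 8.36 to 10.9 CPM against 21.7 and 61.7 CPM, and within the S tag the values were 7.90 and 16.8 CPM. On plain totals Chac1 was at 10.1 to 11.4 CPM in control and 16.0 to 30.9 CPM in Traf6 KO. Traf6 KO 1 sets much of its size: without that library the log2 fold change was 1.10 (adjusted p by edgeR = 0.136). It was 1.21 ± 0.40 after adding the acinar level as covariate (SE, adjusted p by edgeR = 0.247).

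Trib3 (chromosome 2, 152337422 to 152344032), which feeds back on ATF4 and binds AKT, had the lowest control mean per length, overlapping Psat1. It stood at 3.22, 3.85, 2.58 and 3.88 CPM across the 4 libraries labelled control and at 9.87, 4.85 and 4.98 CPM in Traf6 KO 1 to 3. Each Traf6 KO library was above each control, but the gap was small, with 90 counts in Traf6 KO 2 (exact 95% Poisson interval 72.4 to 110.6, counting error only) against 110 in the library labelled control 4 (90.4 to 132.6), which had a larger scaled total. Its log2 fold change was 0.95 ± 0.31 (SE, adjusted p by edgeR = 0.231; exact two-sided permutation p = 0.0571). On plain totals the groups overlapped, at 3.08 to 5.02 CPM in control and 3.59 to 6.74 CPM in Traf6 KO, with an exact two-sided permutation p of 0.4. Without Traf6 KO 1 the log2 fold change was 0.55. With TMM factors the summed ductal genes were likewise higher, and the summed beta-cell and endothelial genes lower, in each Traf6 KO library. On plain totals the ductal and endothelial sums overlapped between the genotypes. The part of these cell types in the levels of Chac1 and Trib3 was not tested.

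The 3 amino acid synthesis genes were high in acinar-rich libraries of both genotypes. Phgdh (chromosome 3, 98313170 to 98339990) stood at 51.1, 14.6, 19.1 and 16.5 CPM across the 4 libraries labelled control and at 202, 109 and 11.97 CPM in Traf6 KO 1 to 3. The 3 highest values are those of the acinar-rich libraries, and Traf6 KO 3 was the lowest of all 7. The log2 fold change was 2.08 ± 0.81 (SE, adjusted p by edgeR = 0.279), and 0.01 ± 0.54 (SE) once the acinar level was a covariate. Leaving out Traf6 KO 1 gave 1.28, and leaving out control 1 gave 2.71. Asns (chromosome 6, 7675169 to 7693254) stood at 124, 86.8, 73.4 and 67.8 CPM in control and at 292, 202 and 61.8 CPM in Traf6 KO, again with Traf6 KO 3 lowest. Its log2 fold change of 1.07 ± 0.46 (SE, adjusted p by edgeR = 0.309) was 0.07 ± 0.35 (SE) with the covariate, and 0.60 without Traf6 KO 1. With SE of this size the covariate fits do not show that a difference is absent. Leaving out the 3 acinar-rich libraries keeps 1 Traf6 KO library, an alternative added after seeing the data, and gave -0.49 for Phgdh and -0.31 for Asns.

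Psat1 (chromosome 19, 15904678 to 15947337) acts after Phgdh in the same pathway. It stood at 10.7, 6.97, 5.65 and 6.14 CPM across the 4 libraries labelled control and at 54.8, 28.8 and 9.09 CPM in Traf6 KO 1 to 3. Traf6 KO 3 lay above the 3 controls that were not acinar-rich and below control 1. Its log2 fold change was 2.06 ± 0.52 (SE, adjusted p by edgeR = 0.201; exact two-sided permutation p = 0.1143). It was 0.89 ± 0.37 (SE) with the acinar covariate, 0.53 without the 3 acinar-rich libraries and 1.38 without Traf6 KO 1. On plain totals Psat1 was higher in every Traf6 KO library than in every control, and the log2 fold change was 1.25 (adjusted p by edgeR = 0.493).

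**Figure D2:**
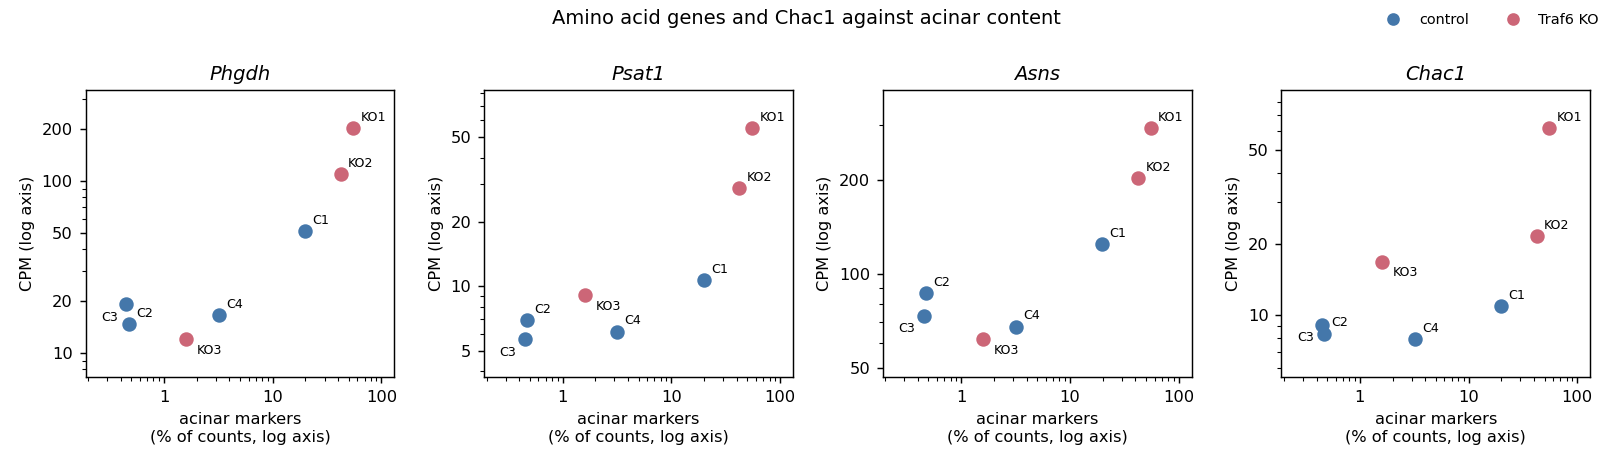
Levels of Phgdh, Psat1, Asns and Chac1 in CPM against the share of counts from 29 acinar markers in percent, both on log axes, 1 point per library (control blue, Traf6 KO red). For Phgdh and Asns the library with the 1.6% share in Traf6 KO (KO3) lies below each control, while for Chac1 it lies above each control.

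Leaving out Traf6 KO 3 leaves only acinar-rich libraries in the Traf6 KO group. In that comparison edgeR called 4 members higher, Chac1 (log2 fold change 2.19, adjusted p = 0.0277), Psat1 (2.50, 0.0171), Phgdh (2.61, 0.0380) and Asns (1.49, 0.0303), where 3.43% of all genes were called higher. The acinar shares of 55.3% and 42.3% in that group against 0.451% to 19.8% in control cannot be told apart from genotype there. The same libraries with the acinar covariate, an alternative added after seeing the data, gave 0 calls, with Chac1 at 1.73 and Asns at 0.88 (adjusted p by edgeR = 0.824 for both), Psat1 at 1.71 and Phgdh at 1.18. The DESeq2 Wald test on all 7 libraries called 2 members higher, Chac1 (1.91, DESeq2 adjusted p = 0.000767) and Psat1 (2.10, 0.00274), against 3.43% of its genes. Limma-voom with sample quality weights called the same 2 members (limma adjusted p = 0.0326 and 0.0307), against 4.13% of genes. Over all 22 alternatives the adjusted p of Chac1 ran from 0.000767 to 0.824 and that of Psat1 from 0.00274 to 0.750. The log2 fold changes of Chac1 (0.98 to 2.19), Psat1 (0.53 to 2.50) and Trib3 (0.32 to 1.18) were above 0 in each of the 22.

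**Figure D3:**
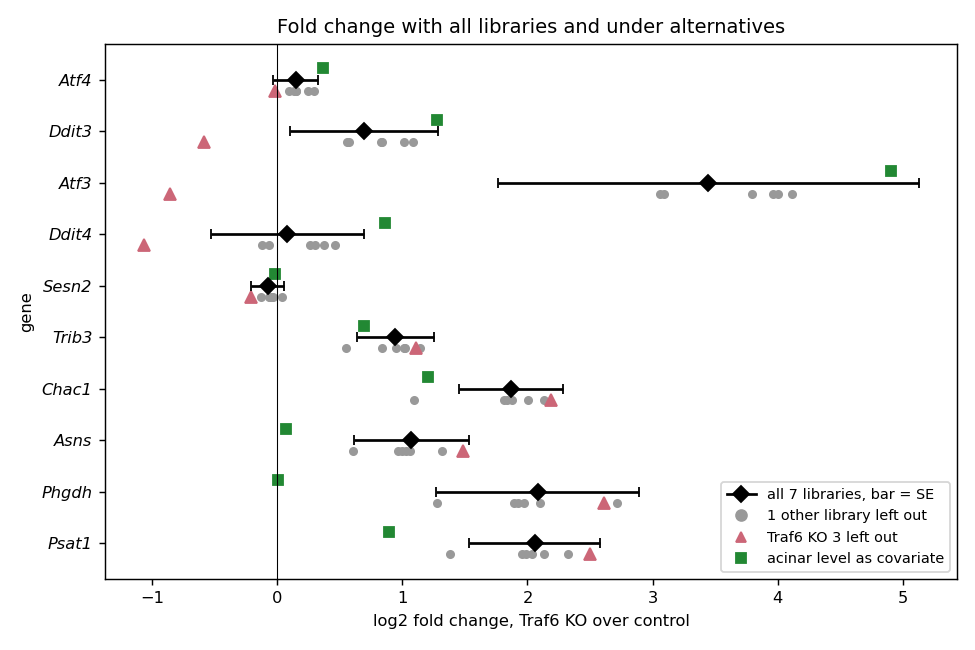
Log2 fold change of each gene, Traf6 KO over control, with all 7 libraries (black diamonds, bars are SE), with 1 library left out (grey points, red triangle for Traf6 KO 3) and with acinar level as covariate (green squares). Without Traf6 KO 3 Ddit3 (-0.58), Atf3 (-0.86) and Ddit4 (-1.07) lie below 0, and with the covariate Phgdh (0.01) and Asns (0.07) lie near 0.

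Ddit3, Atf3 and Ddit4 formed a separate pattern, set by Traf6 KO 3. Atf3 (chromosome 1, 191170296 to 191218039) stood at 2.77, 30.05, 23.5 and 0.741 CPM across the 4 libraries labelled control and at 13.8, 2.48 and 449 CPM in Traf6 KO 1 to 3. The value of Traf6 KO 3 rests on 13895 counts, and that of the library labelled control 4 on 21 (exact 95% Poisson interval 13.0 to 32.1). The groups overlapped, since Traf6 KO 1 and 2 lay within the range of the controls. The log2 fold change was 3.44 ± 1.68 (SE, adjusted p by edgeR = 0.357), and -0.86 without Traf6 KO 3.

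Ddit3 (chromosome 10, 127290774 to 127296288) stood at 18.1, 32.4, 33.1 and 18.8 CPM across the 4 libraries labelled control and at 19.5, 14.9 and 88.9 CPM in Traf6 KO 1 to 3. Ddit4 (chromosome 10, 59949669 to 59951834) stood at 39.4, 103, 97.9 and 49.4 CPM in control and at 40.6, 29.0 and 159 CPM in Traf6 KO. For both, Traf6 KO 3 was highest, controls 2 and 3 came next, and the remaining 4 libraries lay together lower down. The log2 fold changes were 0.69 ± 0.59 for Ddit3 (SE, adjusted p by edgeR = 0.591) and 0.08 ± 0.61 for Ddit4 (SE, adjusted p by edgeR = 0.961). Without Traf6 KO 3 they were -0.58 and -1.07, and among Q- and R-tagged libraries alone -0.70 and -1.21 (adjusted p by edgeR = 0.235 and 0.181).

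A list of 8 immediate-early genes, chosen after the values were seen, had a similar order. These genes are transcribed within minutes of a stimulus, and their summed level was 15850 CPM in Traf6 KO 3, 4759 and 4215 CPM in controls 2 and 3, 1158 and 1231 CPM in control 1 and the library labelled control 4, and 653 and 609 CPM in Traf6 KO 1 and 2. Fos stood at 2652 CPM in Traf6 KO 3 and at 95.3 to 868 CPM in the other 6 libraries. Their part in the levels of Atf3, Ddit3 and Ddit4 was not tested. Traf6 KO 3 is also the library with Xist, and whether sex has a part was not tested.

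**Figure D4:**
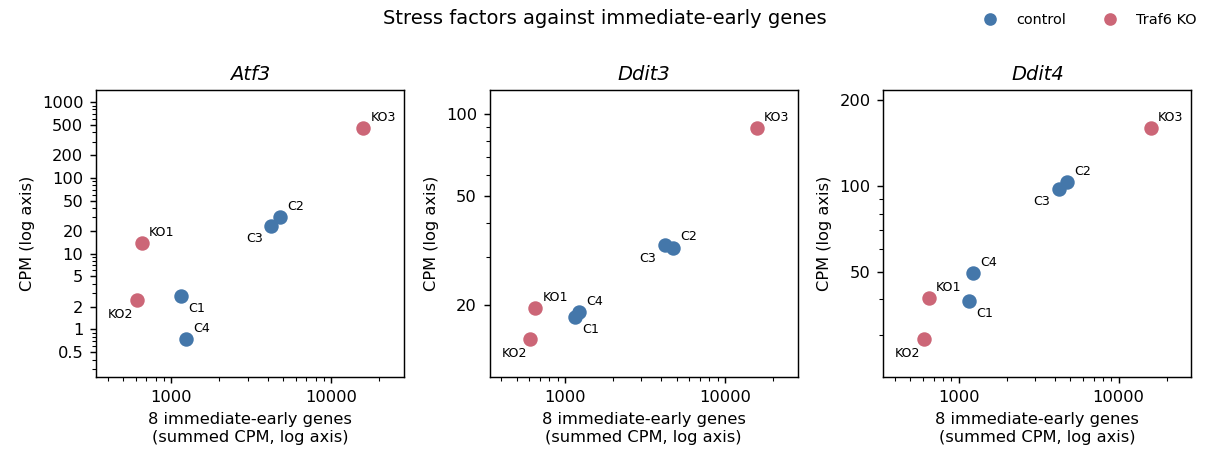
Levels of Atf3, Ddit3 and Ddit4 in CPM against the summed CPM of 8 immediate-early genes, both on log axes, 1 point per library (control blue, Traf6 KO red). KO3 is at the upper right of each panel with C2 and C3 next, and KO1 and KO2 are at the left.

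Likeness between genes was measured as the root-mean-square difference of log2(CPM + 1) over the 7 libraries, each gene centred on its mean. Among the members, Atf4 and Sesn2 were the nearest pair (0.236), followed by Ddit3 and Ddit4 (0.289) and by Chac1 and Psat1 (0.363), and Atf3 and Phgdh were the farthest (3.36). The measure is not scaled to the range of a gene, so genes that vary little lie near each other whatever their order. Atf4 and Sesn2 had the smallest ranges. Control 1 was lowest of the controls for Atf4 (191 CPM) and highest for Sesn2 (49.2 CPM), and control 3 was the reverse (268 and 41.1 CPM). Of 12738 genes compared, those nearest to Atf4 were Traf5 (0.0859), Suv39h2 (0.0899) and Gpr137c (0.0957), all 3 highest in Traf6 KO 3, as Atf4 was. Suv39h2 and Gpr137c lay at 1.02 to 3.04 CPM, where the added 1 narrows the range. The genes nearest to Atf3, the member of widest range, were Arc (1.11), Jun (1.15) and Dusp1 (1.20), each highest in Traf6 KO 3. Ratios of counts within a library do not depend on scaling. In 4 of the 45 member pairs they did not overlap between genotypes, where 12.5% of all pairs of tested genes did not, so the members' share is near the background.

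Upstream of Atf4, none of 15 tested genes of the eIF2alpha kinases and eIF2 factors passed the test in either direction, and the median log2 fold change was 0.16 (11 of 15 above 0). It turned to -0.05 with the acinar covariate and to -0.12 without the 3 acinar-rich libraries. On plain totals it was -0.36, where the median of all genes was -0.46. There 4 of these 15 genes were below every control in every Traf6 KO library and 0 were above, an order seen in 0.759% of all genes. The share of all genes below on plain totals was not taken, and genes in general were shifted down on that scale. The 4 genes therefore cannot be read as particular to this list. Eif2ak3, which encodes PERK, stood at 44.3 to 68.7 CPM in control and at 134, 109 and 57.7 CPM in Traf6 KO 1 to 3 (0.77 ± 0.27 SE, adjusted p by edgeR = 0.251), so its high values too were those of the acinar-rich Traf6 KO libraries. Eif2ak4, which encodes the amino acid sensor GCN2, ranged from 12.9 to 15.2 CPM in control and was 16.7, 22.2 and 16.6 CPM in Traf6 KO (0.39 ± 0.14 SE, adjusted p by edgeR = 0.249). Eif2s3x, an eIF2 subunit gene on the X chromosome, was at 0.54 ± 0.15 (SE, adjusted p by edgeR = 0.203).

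Among 18 feedback and partner factors of the pathway 0 passed the test in either direction, 15 were above 0 and the median was 0.51. That median was 0.13 without Traf6 KO 3, 0.24 with the acinar covariate and 0.26 without the 3 acinar-rich libraries. Ppp1r15b, the constitutive partner of the eIF2alpha phosphatase, stood at 47.7, 39.0, 41.3 and 51.7 CPM across the 4 libraries labelled control and at 78.4, 69.6 and 92.3 CPM in Traf6 KO 1 to 3. The groups did not overlap, and the acinar-rich libraries did not hold its highest value (0.84 ± 0.14 SE, adjusted p by edgeR = 0.176). On plain totals they overlapped, with Traf6 KO 1 at 39.2 CPM and controls at 45.5 to 66.1 CPM. Ppp1r15a, the stress-induced partner, instead had its highest value in Traf6 KO 3 (329 CPM), with 48.2 and 43.4 CPM in the other 2 Traf6 KO libraries and 29.1 to 134 CPM in control. Nupr1, a stress gene abundant in acinar cells, was at 677 CPM in control 1, at 60.9 CPM or less in the other 3 libraries labelled control, and at 2593, 1604 and 25.9 CPM in Traf6 KO. The lipoprotein receptor gene Vldlr (0.34 ± 0.11) and the p53 target Sesn1 (0.57 ± 0.20) had edgeR adjusted p of 0.231 and 0.250.

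Of 17 tested genes of serine, one-carbon, proline and aspartate synthesis 0 passed in either direction, 12 were above 0 and the median was 0.45, or 0.05 with the acinar covariate and -0.06 without the 3 acinar-rich libraries. Psph, the third enzyme of serine synthesis, was at 5.19 to 6.32 CPM in control and at 9.78, 7.60 and 4.63 CPM in Traf6 KO. The mitochondrial folate enzyme genes Aldh1l2 (1.59 ± 0.44), Shmt2 (0.75 ± 0.27) and Mthfd2 (0.83 ± 0.33) and the alanine aminotransferase gene Gpt2 (1.47 ± 0.46) had edgeR adjusted p of 0.205, 0.259, 0.284 and 0.223. In all 4 the acinar-rich Traf6 KO libraries were highest. The cytosolic Shmt1 (2.57 ± 0.80, edgeR adjusted p = 0.223) rested on 5 to 57 counts.

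All 13 tested amino acid transporter genes were above 0, 0 passed and the median was 0.72, or 0.50 with the acinar covariate and 0.30 without the 3 acinar-rich libraries. Slc38a2, a neutral amino acid transporter gene, stood at 47.6, 61.5, 61.5 and 62.9 CPM across the 4 libraries labelled control and at 112, 80.1 and 97.0 CPM in Traf6 KO 1 to 3. Slc7a1, a cationic one, stood at 28.2, 28.2, 22.9 and 20.5 CPM and at 44.7, 50.2 and 34.8 CPM. Their groups did not overlap, at 0.72 ± 0.15 and 0.79 ± 0.17 (SE, adjusted p by edgeR = 0.176 for both), and Slc1a5 (2.03 ± 0.48, edgeR adjusted p = 0.189) did not overlap either. On plain totals Slc38a2 and Slc7a1 overlapped and Slc1a5 did not. The cystine transporter gene Slc7a11 rested on 2 to 40 counts a library.

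In the 3 remaining lists 0 genes passed in either direction. The 20 aminoacyl-tRNA synthetase genes, which charge tRNAs with amino acids, had a median of 0.13 with 16 above 0, and Wars (0.76 ± 0.36), Iars (0.36 ± 0.17) and Dars (0.20 ± 0.10) had the smallest p (adjusted p by edgeR = 0.345, 0.348 and 0.383). The 14 genes of the mitochondrial stress arm had a median of 0.11 with 11 above 0. Without the 3 acinar-rich libraries these medians were -0.17 and -0.07. The stress hormone gene Fgf21, which acinar cells also make, had 1 count in each of controls 2 and 3 and the library labelled control 4, and 35 in control 1. It had 334, 182 and 30 counts in Traf6 KO 1 to 3. Gdf15, another secreted stress marker, had 7 to 25 counts in control and 15, 9 and 80 in Traf6 KO, and Dele1, which relays mitochondrial stress to eIF2alpha kinase HRI, was at -0.22 ± 0.11 (SE, adjusted p by edgeR = 0.368).

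The 25 genes of the ATF6 and XBP1 arms of the unfolded protein response had a median of 0.14 with 15 above 0. Herpud1, a component of ER-associated degradation that ATF4 also induces, stood at 361, 229, 263 and 209 CPM across the 4 libraries labelled control and at 801, 583 and 554 CPM in Traf6 KO 1 to 3. Its groups did not overlap (1.28 ± 0.23 SE, adjusted p by edgeR = 0.176). Syvn1 did not overlap either (0.45 ± 0.12 SE, adjusted p by edgeR = 0.201), while Sel1l was at 655, 556 and 117 CPM in Traf6 KO 1 to 3 against 94.3 to 185 CPM in control. The chaperone gene Hspa5 was highest in Traf6 KO 3 (2736 CPM) and at 1030 to 1643 CPM in the other 6 libraries (0.35 ± 0.35 SE, adjusted p by edgeR = 0.652). On plain library totals the medians of these 7 lists ran from -0.40 to 0.21, where that of all genes was -0.46. Of the 10 named pathway genes whose Traf6 KO libraries were all above control with TMM factors, 2 also were on plain totals, Slc1a5 and Herpud1. The 10 were among the 3 genes of smallest p of their lists, so this order partly follows from how they were picked. Over all genes tested it was seen in 5.58% with TMM factors and in 0.759% on plain totals.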

How the data were processed

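The authors deposited raw whole-number counts per gene for 7 islet libraries, without normalization. The submitters' processing notes list GRCm38, RSEM 1.3.1, STAR 2.6.1b and FastQC without saying what each did, so counts may be rounded estimates. Which annotation and strand setting were used is not given in the sources used here. Of 55487 identifiers, 55141 matched GENCODE M21, which gave coordinates and exon lengths. Groups came from the labels, and 1 library was taken as 1 mouse. Where libraries are not separate animals, p-values reflect only spread among these samples, which may be technical.

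Counts were tested across all genes with edgeR 4.0.16 in R 4.3.3 (quasi-likelihood F test, TMM, filterByExpr with a minimum count of 10 and a total of 15, genotype only, Benjamini-Hochberg adjusted p under 0.05). The code was checked on simulated counts without differences in acinar content. That check does not tell power or error in these data. CPM are counts over total and TMM factor. SE come from the fold change and F. Exact permutation tests on log2(CPM + 1) over 35 splits used scipy 1.17.1. Alternatives used limma 3.58.1 and DESeq2 1.42.0 among others. Members and lists were chosen with earlier results of these data known. Named were Traf6, the 10 members, the 3 genes of smallest p per list, 11 fixed genes and the 3 nearest genes (mean CPM of at least 1) to Atf4 and to the member of widest range.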

Additional observations from a re-analysis of the deposited data

Results flagged for a closer look

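Of 38 genes examined in the 4 controls, 7 had a library whose gap to its nearest neighbour over the group's range exceeded Dixon's 95% critical value. Chance flags about 1 in 20 groups. Control 1, the acinar-rich control, was the high library for Phgdh (51.1 CPM), Nupr1 (677 CPM), Fgf21 (1.23 CPM) and Sel1l (185 CPM), and the low library for Slc38a2 (47.6 CPM). The library labelled control 4 was low for Eif2s3x (18.3 CPM), and control 3 was low for Dele1 (45.7 CPM). Groups of 3 were not examined in this way.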

How the results depend on the processing

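The count of genes called was 0 in most alternatives. It was 744 with the DESeq2 Wald test, 1046 with limma-voom and quality weights, 5 with the replicate block, 3 with the acinar covariate, 67 without the 3 acinar-rich libraries (added after seeing the data), and 0 to 701 with 1 library left out (701 without Traf6 KO 3). Among the members 2 were called by DESeq2 and 2 with quality weights, and 0 to 4 with 1 library left out. DESeq2 gave no adjusted p for Atf3. The replicate block used replicates 1 to 3. Same-numbered libraries correlated at 0.596, -0.177 and 0.454 in their deviations from group means. Libraries control 1 and control 3 correlated best with their own number, and library control 2 with Traf6 KO 3 (0.482). These correlations cannot settle whether a shared number marks a pair. Under the block Ddit4 was at -0.33, and no member was called.

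Of the member fold changes under alternatives 189 kept direction and call, 8 gained a call and 23 changed sign. Ddit4 changed sign on plain totals (-0.061), with limma-voom (-0.17), quality weights (-1.05), the tag series as a term (-0.39) and Q- and R-tagged libraries alone (-1.21), and ran from -1.07 to 0.46 with 1 library left out. Atf4 changed sign on plain totals (-0.27), with quality weights (-0.11) and Q- and R-tagged libraries (-0.033), and ran from -0.015 to 0.30. With quality weights and with Q- and R-tagged libraries Ddit3 was at -0.50 and -0.70 and Atf3 at -0.83 and -1.26. With 1 library left out Ddit3 ran from -0.58 to 1.08, Atf3 from -0.86 to 4.11 and Sesn2 from -0.21 to 0.042. Without the acinar-rich libraries Asns was at -0.31, Phgdh at -0.49 and Sesn2 at 0.17. The causes were not tested. Trib3, Gdf15, Slc7a11 and Shmt1 are limited by low counts.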
